A study of Mus musculus with 24 samples.

Results

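The genes described here are Slc7a11, Slc7a5, Slc3a2, Slc7a1, Slc7a3, Slc1a4, Slc1a5, Slc38a2 and Slc6a9, amino acid transporters of the plasma membrane known as targets of the integrated stress response (ISR). They are 9 of the 55335 genes in the count files, each with a single entry. These genes and the lists set beside them below were chosen by name, with earlier results of these data known. RNA was sequenced from cultured primary osteoblasts (OBs) of mouse parietal bone, wild type (WT) or Het G610C, the latter with 1 of its Col1a2 alleles coding for cysteine in place of a glycine of the collagen I α2 chain, harvested 8, 14 or 21 days after cells were seeded. Every culture was kept in osteogenic medium with ascorbic acid 2-phosphate, and each of the 6 groups held 4 libraries, 24 in all. Per the study's methods, each preparation pooled bones of several pups aged 4 to 5 days, of one genotype and on a C57BL/6J background, so its wells share their animals. The cultures are not pure OBs. The methods count fewer wells per genotype and day than the 4 libraries labelled, so n below is a number of labelled libraries, which may not all be separate wells. No pair of libraries in a group matched within sampling noise (chi-square per degree of freedom 4.78 to 193). Gene counts do not show the substitution itself, so the genotype labels could not be checked on it.

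When amino acids run short or protein folding fails, stress kinases modify the initiation factor eIF2α, and ATF4, a transcription factor whose mRNA is read best under those conditions, accumulates. With C/EBP partners, ATF4 binds composite DNA elements near genes of amino acid import, amino acid synthesis and tRNA charging. Osteoblasts secrete large amounts of collagen I, a protein rich in glycine and proline, and their amino acid supply depends on such carriers. Slc7a11 is a target of the antioxidant factor NRF2 as well.

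Promoter stretches are shown for Slc7a11 and Slc1a4 because they were the 2 members whose RefSeq promoter window held the ATF4 composite core TGATGNAA, searched on both strands and printed in capitals below. RefSeq windows (250 bases before to 50 after a transcription start, build GRCm38.p6) were found for 6 of the 9 members, with none matched for Slc7a5, Slc7a3 and Slc1a5. In Slc7a11 the core stood 66 to 59 bases before the start and again, in the reverse direction, 47 to 40 bases before it. In Slc1a4 a single reverse core spanned the start itself. Each stretch is written 5′ to 3′ on the gene's own strand, the minus strand in both, and lies at chr3:50443614-50443733 for Slc7a11 and chr11:20332710-20332833 for Slc1a4.
Slc7a11: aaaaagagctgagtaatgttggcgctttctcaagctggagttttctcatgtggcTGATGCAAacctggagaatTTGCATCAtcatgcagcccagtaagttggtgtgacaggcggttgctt
Slc1a4: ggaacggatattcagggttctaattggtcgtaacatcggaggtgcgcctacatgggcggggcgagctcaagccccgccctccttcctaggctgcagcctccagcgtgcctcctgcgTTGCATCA
The core occurred in a window of 4.51% of all 27025 genes with an entry. The NRF2-type core TGACNNNGC was found near Slc6a9 (in 2 of its windows), Slc7a1 and Slc38a2, against 14% of all genes, and the cyclic AMP response element TGACGTCA near no member, against 2.03% of all genes. No member held more than 1 of these 3 motifs. These matches describe letters in a short window and were not tested for binding.

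Expression is given as relative quantity (RQ), for which a gene's reads were divided by the geometric mean of those of 4 housekeeping genes in that library (Actb, Actg1, Sdha and Mrfap1). Library totals ran from 17140202 to 59734231 counts. The 6 libraries numbered replicate 1 were shallower than the others (17140202 to 25825762 against 28159342 to 59734231 counts) and stood apart in several values below. The methods describe 2 experiments with different litters, seeding density and oxygen level, but the labels do not say which library belongs to which. OB markers (Col1a1, Runx2, Sp7, Ibsp, Alpl, Bglap) were detected in every library, with a summed RQ of 95.6 to 186 at days 14 and 21. In these bulk samples, fewer cells of a type and less RNA per cell cannot be told apart.

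Markers of other cells moved with genotype. Of 7 macrophage markers, 6 were higher in Het at days 14 and 21 and none lower (edgeR quasi-likelihood test, adjusted p under 0.05), and their summed RQ was 1.13 to 5.72 in the 8 WT and 2.45 to 15.05 in the 8 Het libraries. Of the 6 OB markers, 4 were lower in Het and none higher, with a summed RQ of 101 to 186 in WT and 95.6 to 149 in Het. Of 5 chondrocyte markers, 1 was lower in Het (5 with the replicate block), and their summed RQ was 3.57 to 21.9 in WT and 1.17 to 22.9 in Het. Here and below, each of these sums follows mainly 1 gene. By mean count per library these were Lyz2 (65621, next Csf1r at 6906), Col1a1 (2.0971e+06, next Ibsp at 173755) and Col2a1 (189314, next Acan at 17594). Without replicate 2, 3 or 4 at most 1 macrophage marker and at most 1 OB marker was called. Those settings called 328, 258 and 139 genes in all. Of 5 osteoclast markers 1 was higher and 1 lower, and of 4 smooth muscle markers 1 was higher. Adipocyte and endothelial markers were near 0 (summed RQ at most 0.0182 and 0.00513, with Adipoq, Plin1, Cidec, Lep, Tek and Emcn at 0 in some libraries), as was the fibroblast marker Clec3b (at most 0.00170). Of 3 endothelial markers tested, 1 was higher in Het and 0 lower. This was Kdr, at a mean of 38 counts per library (log2 fold change 0.99 ± 0.24, SE, edgeR adjusted p = 0.0127). The summed RQ of 4 Y-linked genes (Ddx3y, Eif2s3y, Kdm5d and Uty) was 0.120 to 0.176 in Het and 0.220 to 0.287 in WT at day 14, without overlap, and 0.119 to 0.252 and 0.223 to 0.333 at day 21. At day 8 this sum was 0.0894 to 0.219 in Het and 0.214 to 0.251 in WT. The RQ of the X-linked Xist was 0.512 to 0.609 in Het and 0.352 to 0.505 in WT at day 8. Its ranges in Het and WT overlapped at day 14 (0.316 to 0.882 and 0.389 to 0.724) and day 21 (0.582 to 0.783 and 0.420 to 0.762). The part of these marker differences in the values below was not tested.

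**Figure D1:**
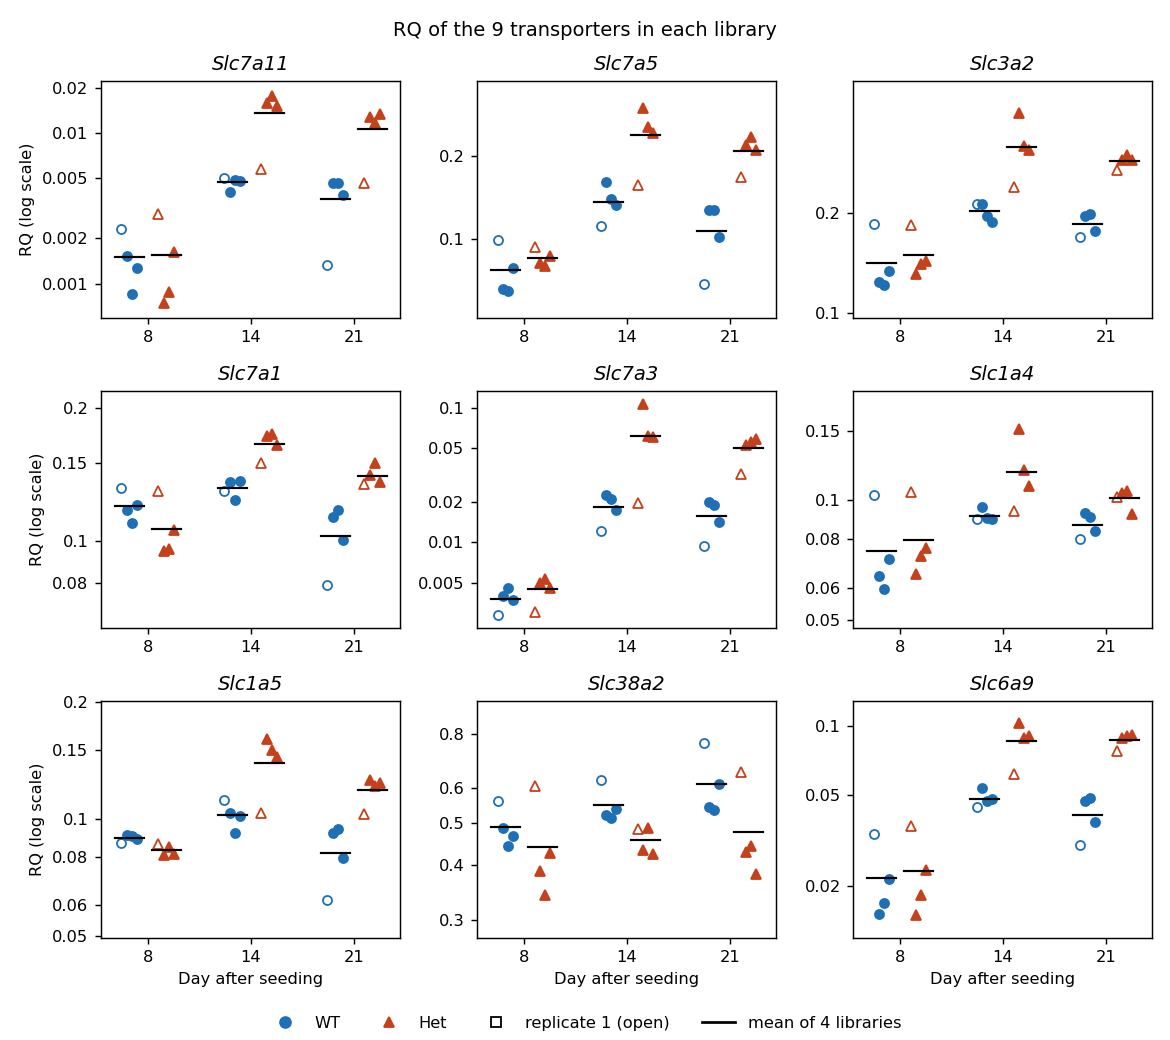
RQ (log scale, a separate range in each panel) of the 9 transporters in each of the 24 libraries by day after seeding; circles are WT, triangles Het, open symbols replicate 1, and bars the mean of 4 libraries. At days 14 and 21 most Het libraries lie above WT in all panels except Slc38a2, and the open Het symbols of those days lie lowest of their group for Slc7a11, Slc7a5, Slc3a2, Slc7a1, Slc7a3, Slc1a5 and Slc6a9.

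The members covered a wide range of levels. Per kilobase of annotated exon, RQ × 1000 in the 8 WT libraries of days 14 and 21 was highest for Slc38a2 (65.8 ± 9.43, SD), the sodium-coupled carrier of small neutral amino acids, followed by the heavy chain Slc3a2 (54.7 ± 4.38) and Slc7a5 (32.6 ± 7.46). Slc1a4 (22.7 ± 1.32) and Slc1a5 (22.1 ± 3.72) came next, and the ranges of these 2 overlapped each other and that of Slc7a5. Slc7a1 (10.2 ± 1.70), Slc6a9 (8.64 ± 1.41) and Slc7a3 (4.48 ± 1.23) were lower, each overlapping the next in range, and Slc7a11 was the lowest at 0.300 ± 0.0874. The ranges of Slc38a2 (58.0 to 86.0) and Slc3a2 (48.0 to 60.3) overlapped as well. In Het at the same days Slc3a2 headed the order (85.1 ± 13.2), with Slc7a5 (60.2 ± 12.5) and Slc38a2 (52.9 ± 9.38) overlapping below it. Slc7a3 reached 14.8 ± 6.67 in Het, in the range of Slc6a9 (16.7 ± 2.34) and Slc7a1 (13.3 ± 1.39). The annotated exons of Slc7a11 sum to 13922 bases, the most of the 9 genes, and this length enters its level.

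**Figure D2:**
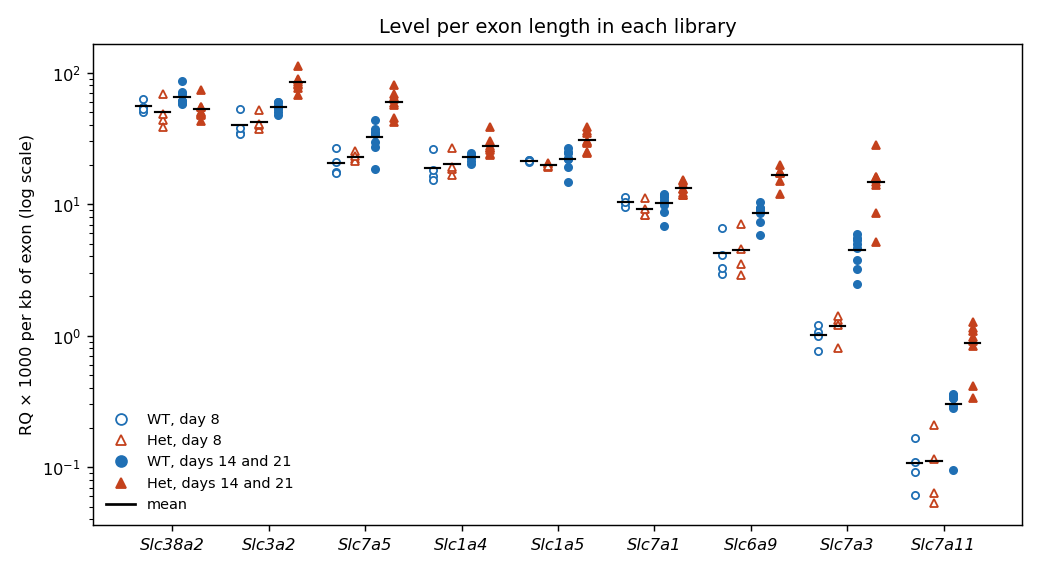
Level per exon length (RQ × 1000 per kilobase, log scale) of each transporter in every library, ordered by the WT mean at days 14 and 21; circles are WT, triangles Het, open symbols day 8, filled symbols days 14 and 21, and bars the group means. By the WT means at days 14 and 21, Slc38a2 and Slc3a2 stand at the top. By the same means Slc7a11 stands more than a decade below the next gene, Slc7a3.

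Het was compared with WT at days 14 and 21 together, the contrast the study used for matrix-producing cells, with 8 labelled libraries per genotype here. All 9 members passed the edgeR test, 8 of them higher and Slc38a2 lower in Het, where 16.1% of the 19839 genes tested were called, 7.26% higher and 8.88% lower. The median log2 fold change was 0.64 over the 9 members and -0.05 over all genes tested. The direction of the calls over all genes depended on scaling: 1440 of 3202 calls were higher on the housekeeping scale, 2463 of 3948 with TMM, 2690 of 4070 with DESeq2's size factors and 3289 of 4297 on total counts, while the members' directions were the same on all of these scales. By the study's own bar of a change above 20% with p under 0.05, taken here on the ratio of mean RQ with an exact permutation test, 8 of 9 members passed, where 14.1% of all genes did. Separations of the genotypes within day 14 or day 21 are described below for single members. The share of all genes so separated within either day was not counted.

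Slc7a11 (chr3:49892526-50443614, minus strand, build GRCm38 as for all members), the cystine and glutamate exchanger that feeds glutathione synthesis, had few reads (14 to 136 counts per WT library at days 14 and 21). Its RQ at day 14 was 0.00502, 0.00407, 0.00490 and 0.00483 in the WT libraries and 0.00578, 0.0160, 0.0178 and 0.0152 in the Het libraries, in the order of replicates 1 to 4 here and below. At day 21 the values were 0.00132, 0.00465, 0.00466 and 0.00390 in the WT libraries and 0.00465, 0.0127, 0.0117 and 0.0135 in the Het libraries. All Het libraries were above all WT libraries at day 14 (share of all genes not counted). At day 21 only Het replicate 1 fell into the WT range. The mean RQ was 2.92 times that of WT over both days (two-sided exact permutation p = 0.000932, 8 against 8), and the edgeR log2 fold change was 1.54 ± 0.26 (SE, adjusted p = 0.00221). The ratio was 1.64 in the replicate 1 libraries and 3.22 in replicates 2 to 4.

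Slc7a5 (chr8:121881150-121907694, minus strand) forms the exchanger of leucine and other large neutral amino acids. Its RQ at day 14 was 0.111, 0.161, 0.139 and 0.132 in the WT libraries and 0.157, 0.300, 0.255 and 0.242 in the Het libraries. At day 21 it was 0.0685, 0.127, 0.128 and 0.101 in the WT libraries and 0.167, 0.219, 0.235 and 0.211 in the Het libraries. Of the 8 Het libraries, 7 exceeded every WT library, and Het day 14 replicate 1 lay just below WT day 14 replicate 2. The Het to WT ratio was 1.84 (exact permutation p = 0.000311) and the log2 fold change 0.89 ± 0.14 (edgeR adjusted p = 0.00146), with ratios of 1.80 in replicate 1 and 1.85 in replicates 2 to 4.

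Slc3a2 (chr19:8706882-8723369, minus strand) encodes the heavy chain that carries both of these light chains to the cell surface. Its RQ was 0.213, 0.212, 0.195 and 0.188 in the WT libraries and 0.239, 0.398, 0.318 and 0.309 in the Het libraries at day 14, and 0.169, 0.195, 0.198 and 0.176 in the WT libraries and 0.268, 0.287, 0.298 and 0.287 in the Het libraries at day 21. The genotypes did not overlap in any of these 16 libraries. The ratio was 1.56 (exact permutation p = 0.000155, the smallest that 8 against 8 allows) and the log2 fold change 0.64 ± 0.08 (edgeR adjusted p = 0.000213), with ratios of 1.33 in replicate 1 and 1.63 in replicates 2 to 4. Relative to the heavy chain, per kilobase, Slc7a5 stood at 0.642 ± 0.0998 in WT and 0.712 ± 0.0612 in Het at day 14, and at 0.542 ± 0.109 and 0.692 ± 0.0686 at day 21 (SD, n = 4 libraries). The same ratio for Slc7a11 was 0.00594 ± 0.000747 in WT and 0.0108 ± 0.00349 in Het at day 14, and 0.00490 ± 0.00196 and 0.00937 ± 0.00342 at day 21, so its transcript was a small fraction of that of its partner in both genotypes.

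The carriers of the cationic amino acids arginine and lysine differed in size of change. Slc7a3 (chrX:101079210-101086020, minus strand) had the largest log2 fold change of the 9. Its RQ at day 14 was 0.0122, 0.0226, 0.0210 and 0.0174 in the WT libraries and 0.0196, 0.106, 0.0613 and 0.0607 in the Het libraries. At day 21 it was 0.00936, 0.0201, 0.0190 and 0.0141 in the WT libraries and 0.0323, 0.0530, 0.0553 and 0.0584 in the Het libraries. Only Het day 14 replicate 1 lay within the WT range. The ratio was 3.29 (exact permutation p = 0.000622) and the log2 fold change 1.71 ± 0.26 (edgeR adjusted p = 0.00105), with ratios of 2.41 in replicate 1 and 3.46 in replicates 2 to 4. Slc7a3 is the one member on a sex chromosome, and the part of the Y-linked and Xist differences above in its value was not tested.

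Slc7a1 (chr5:148327410-148399904, minus strand), the broadly expressed cationic carrier, had a smaller ratio of Het to WT. Its RQ was 0.130, 0.136, 0.124 and 0.137 in the WT libraries and 0.150, 0.173, 0.175 and 0.165 in the Het libraries at day 14, and 0.0793, 0.113, 0.118 and 0.100 in the WT libraries and 0.134, 0.141, 0.150 and 0.136 in the Het libraries at day 21. Genotypes did not overlap within either day (share of all genes not counted). The ratio was 1.31 (exact permutation p = 0.000932) and the log2 fold change 0.39 ± 0.07 (edgeR adjusted p = 0.00272), and the ratio was 1.36 in replicate 1 and 1.29 in replicates 2 to 4.

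Slc1a4 (chr11:20302180-20332713, minus strand) and Slc1a5 (chr7:16781340-16798274, plus strand) are sodium-dependent exchangers of neutral amino acids, the former with a preference for alanine, serine and cysteine and the latter the main importer of glutamine in many cells. Slc1a5 was 0.112, 0.104, 0.0922 and 0.102 in the WT libraries and 0.103, 0.161, 0.151 and 0.144 in the Het libraries at day 14. Here Het replicate 1 was the sole library below its WT counterpart, at a ratio of 0.925, against 1.55, 1.63 and 1.41 in replicates 2 to 4. At day 21 Slc1a5 was 0.0619, 0.0921, 0.0940 and 0.0795 in the WT libraries and 0.103, 0.126, 0.122 and 0.123 in the Het libraries. These did not overlap (share of all genes not counted). The ratio over both days was 1.40 (exact permutation p = 0.00109) and the log2 fold change 0.49 ± 0.10 (edgeR adjusted p = 0.00454), with ratios of 1.19 in replicate 1 and 1.47 in replicates 2 to 4. Slc1a4 ranged from 0.0798 to 0.0964 (median 0.0899) in WT and from 0.0926 to 0.151 (median 0.105) in Het, with 6 of 8 Het libraries above every WT library. Its ratio of 1.23 (exact permutation p = 0.000932) and log2 fold change of 0.30 ± 0.08 (edgeR adjusted p = 0.0173) were the smallest of the members that rose, and the ratio was 1.16 in replicate 1 and 1.25 in replicates 2 to 4.

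Slc38a2 (chr15:96687392-96699730, minus strand) went the other way. Its RQ was 0.627, 0.522, 0.513 and 0.537 in the WT libraries and 0.485, 0.434, 0.487 and 0.424 in the Het libraries at day 14, and 0.760, 0.543, 0.536 and 0.613 in the WT libraries and 0.654, 0.428, 0.444 and 0.382 in the Het libraries at day 21. Het was below WT in all 8 pairs of libraries with the same number. At day 14 the genotypes did not overlap (share of all genes not counted). At day 21 Het replicate 1 exceeded all WT libraries but replicate 1. The ratio was 0.804 (exact permutation p = 0.0145), just short of the 20% bar, and the log2 fold change was -0.31 ± 0.10 (edgeR adjusted p = 0.0498). The adjusted p moved to 0.0697 on total counts and to 0.0731 without a filter on low counts, and the call was kept in 7 of 28 alternatives. With the replicate number as a block it was 0.00657, and without replicate 1 it was 0.000885. The ratio was 0.822 in replicate 1 and 0.796 in replicates 2 to 4.

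Slc6a9, a carrier of glycine, rose without overlap between the genotypes. Its RQ was 0.0439, 0.0535, 0.0469 and 0.0477 in the WT libraries and 0.0614, 0.102, 0.0884 and 0.0898 in the Het libraries at day 14. At day 21 it was 0.0302, 0.0467, 0.0483 and 0.0379 in the WT libraries and 0.0772, 0.0886, 0.0899 and 0.0907 in the Het libraries. As for Slc3a2, every Het library exceeded every WT library, so 2 of the 9 members were fully separated, compared with 0.398% of all genes tested. The ratio was 1.94 (exact permutation p = 0.000155, the smallest possible) and the log2 fold change 0.96 ± 0.11 (edgeR adjusted p = 0.000102), with ratios of 1.87 and 1.96 in replicate 1 and replicates 2 to 4.

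The Slc6a9 counts carry an annotation limit. In GENCODE M21, whose exon lengths match those of the files for all 9 members, the gene lies at chr4:117834506-117875198 on the plus strand, and its exons overlap those of 3 genes on the minus strand, B4galt2 (46 shared exon bases), Ccdc24 (1429 of 4491) and Gm17114 (all 511). Gm17114 had a mean of 166 counts per library, against 1076 for Slc6a9, and its log2 fold change at days 14 and 21 was 0.90 ± 0.14 (edgeR adjusted p = 0.00136). Ccdc24 gave 0.90 ± 0.11 (adjusted p = 0.000173), while B4galt2 gave 0.02 ± 0.04 (adjusted p = 0.724). Whether strand was used in counting is not given in the sources used here. It is therefore not known whether reads of Slc6a9 and of its antisense neighbours were kept apart. These 3 genes were named for their position, with the data already seen. No exon of the other 8 members overlaps an exon of another gene.

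**Figure D3:**
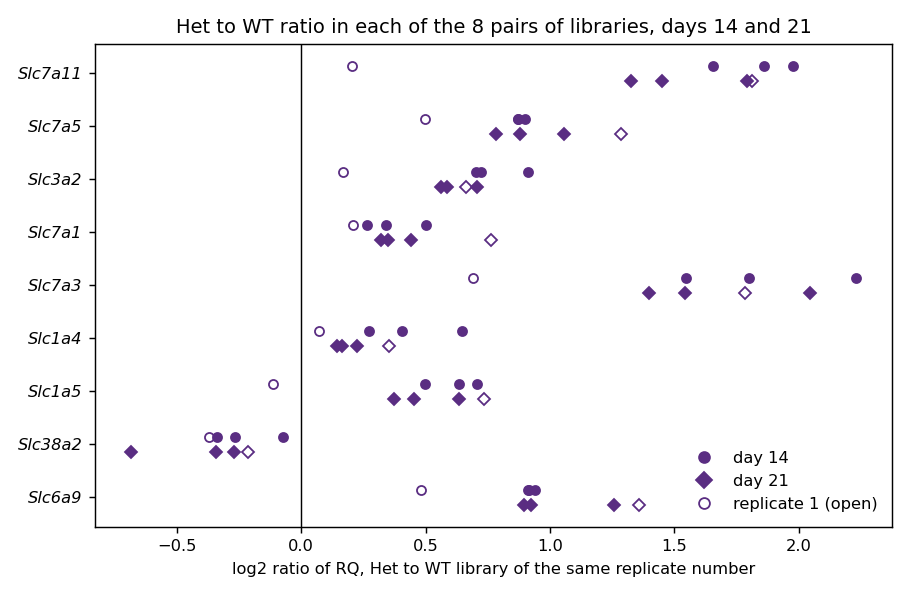
Log2 ratio of Het to WT RQ in each of the 8 pairs of libraries with the same day and replicate number, one row per transporter; circles are day 14, diamonds day 21, open symbols replicate 1, and the line marks equality. For the 8 members that rose, the smallest ratio is that of replicate 1 at day 14, whereas replicate 1 at day 21 lies within or above the other pairs.

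The replicate 1 pairs of the 2 days lay apart. At day 14 the replicate 1 ratio was the lowest of 8 pairs for all 8 members that rose (1.15 for Slc7a11, 1.61 for Slc7a3, 1.05 for Slc1a4). At day 21 it was 3.52, 3.45 and 1.28 for the same genes. Without replicate 1 all 9 members were called and edgeR called 7582 genes. Without replicate 2, 3 or 4, which leaves the replicate 1 libraries with a larger share, 5, 5 and 2 members were called and 328, 258 and 139 genes in all. Without replicate 4 the calls that stood were those of Slc3a2 and Slc6a9. Each day alone, at 4 against 4, gave no member call at day 14 (34 genes in all, lowest adjusted p of a member 0.0619 for Slc6a9) and 4 at day 21 (368 genes). The members' directions were the same in all 28 alternatives.

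At day 8, soon after confluence, the same comparison gave no call for any member. EdgeR called 0 of 18222 genes (0%), with 1817 genes but no member at an unadjusted p under 0.05, and DESeq2 called 431 genes and no member. The members' log2 fold changes lay between -0.17 (Slc7a1, ± 0.11) and 0.23 (Slc7a3, ± 0.21), with a median of 0.08 against -0.07 over all genes. Slc7a11 was 0.00232, 0.00153, 0.000847 and 0.00128 in the WT libraries and 0.00292, 0.000742, 0.000883 and 0.00161 in the Het libraries, each from 21 to 50 counts, and the genotypes overlapped over most of their range. Slc7a3, the member with the largest later change, was 0.00292, 0.00402, 0.00460 and 0.00376 in WT against 0.00306, 0.00496, 0.00534 and 0.00459 in Het, higher in Het for each replicate number but overlapping as groups. Slc6a9 was 0.0336, 0.0150, 0.0168 and 0.0213 in WT against 0.0366, 0.0148, 0.0181 and 0.0233 in Het, with replicate 1 the highest in both genotypes.

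Slc1a5 was the single member of 9 whose genotypes did not overlap at day 8, where 4.8% of all genes were so separated (3.61% with Het lower), and there Het was lower: 0.0869, 0.0910, 0.0905 and 0.0889 in WT against 0.0865, 0.0807, 0.0846 and 0.0815 in Het, a ratio of 0.933 (exact permutation p = 0.0286, the smallest that 4 against 4 allows, unadjusted; edgeR adjusted p = 0.588). Within replicates 2 to 4, Slc7a5 was without overlap higher in Het and Slc7a1, Slc1a5 and Slc38a2 without overlap lower, which is 4 of 9 members where 39.7% of all genes showed such a separation. Without replicate 1, edgeR called 3432 genes and 2 members at day 8, Slc7a1 (-0.23 ± 0.06, adjusted p = 0.0348) and Slc38a2 (-0.27 ± 0.08, adjusted p = 0.0489), both lower in Het. With the replicate number as a block 285 genes and no member were called. Marker levels differed at day 8 too: all 7 macrophage markers had a positive log2 value in Het (median 1.35, summed RQ 0.356 to 0.857 against 0.207 to 0.423 in WT) and all 6 OB markers a negative one (median -0.63, summed RQ 18.4 to 38.0 against 17.4 to 48.0). None of these passed the edgeR test on all libraries, 7 and 4 did without replicate 1, and their part in the day 8 values was not tested.

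**Figure D4:**
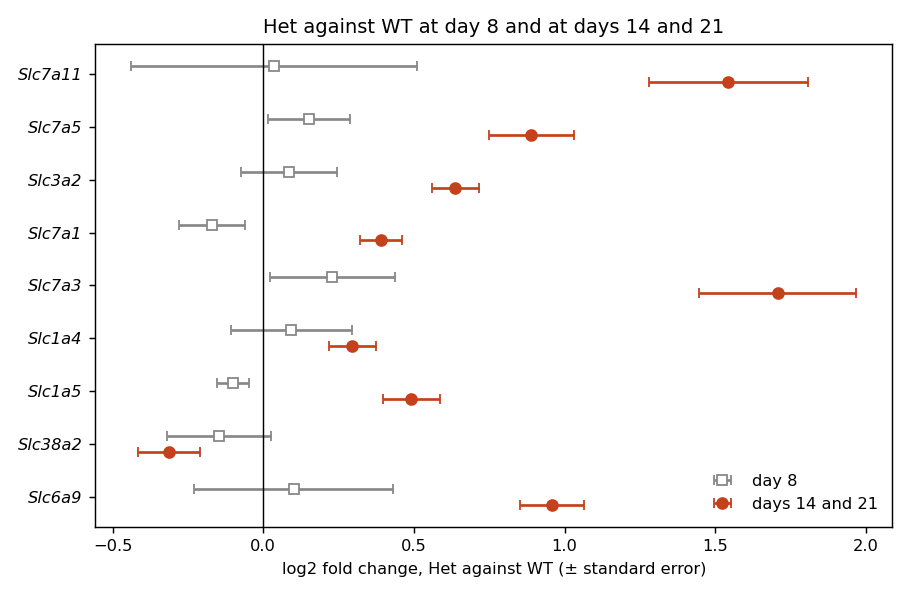
Log2 fold change of Het against WT with its standard error from edgeR for each transporter at day 8 (grey squares, 4 against 4 libraries) and at days 14 and 21 (red circles, 8 against 8); filled symbols have an adjusted p under 0.05. The day 8 values lie within 0.23 of 0, and the later values reach 1.71.

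The change of the Het effect between day 8 and days 14 and 21 was tested in its own fit of all 24 libraries. It was not past the threshold for any member after adjustment (35 of 20434 genes, or 0.171%, were called), although 7 of 9 members had an unadjusted p under 0.05 (1138 genes did). The later effect exceeded that of day 8 by 1.51 ± 0.55 for Slc7a11, 1.48 ± 0.44 for Slc7a3, 0.59 ± 0.14 for Slc1a5 and 0.56 ± 0.13 for Slc7a1 on the log2 scale, the last with the lowest adjusted p of the set (0.112). DESeq2 called Slc7a1 and Slc1a5 (adjusted p = 0.00652 and 0.0171), and the fit with replicate numbers as a block called Slc7a3 (1.44, adjusted p = 0.0152). Without replicate 1, 7 members were called, all with a larger effect later, and Slc1a4 (0.19 ± 0.12) and Slc38a2 (-0.06 ± 0.10) were not. Without replicate 2, 3 or 4 no member was called. The number of genes called in all also varied with the replicate left out, and its range is given in the last section. On all libraries, then, a larger effect at the later days was not shown for any single member by edgeR.

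With culture time, over both genotypes, 8 of the 9 members were higher at days 14 and 21 than at day 8 on the housekeeping scale (6 with TMM or DESeq2's size factors, 5 on total counts, and 6 without replicate 2 or 3), where 58.3% of 20434 genes were called and 40.9% were called higher. Slc7a3 rose most, by 2.87 ± 0.24 on the log2 scale (edgeR adjusted p = 1.43e-09), followed by Slc7a11 (2.27 ± 0.30), Slc6a9 (1.48 ± 0.16), Slc7a5 (1.02 ± 0.12) and Slc3a2 (0.73 ± 0.09). Slc7a3 was the sole member whose 8 later libraries exceeded all 4 day 8 libraries in WT, as 24.1% of all genes did, its mean RQ going from 0.00382 ± 0.000700 to 0.0170 ± 0.00464, a 4.44-fold difference. In Het its mean went from 0.00449 ± 0.000998 to 0.0558 ± 0.0252, or 12.4-fold, and 7 members in Het, all but Slc1a4 and Slc38a2, had every later library above day 8, where 17% of all genes did.

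For the other 4 members the call or direction over time depended on the scale. The housekeeping scale put the median gene 0.16 higher at the later days, TMM put it at -0.02 and total counts at -0.14, and 8351 of 11911 calls were higher on the first, 5601 of 12293 with TMM, 6145 of 12194 with DESeq2's size factors and 4339 of 13144 on total counts. Slc7a1 (0.24 ± 0.06, adjusted p = 0.00315) and Slc1a5 (0.33 ± 0.07, adjusted p = 0.000523) lost their calls on each of the other 3 scales, and Slc7a1 was at -0.06 on total counts. Slc1a4 (0.36 ± 0.10, adjusted p = 0.00284) lost its call on total counts. Slc38a2 was not called (0.16 ± 0.10, adjusted p = 0.177), except with the replicate block (0.17, adjusted p = 0.0213) and without replicate 1, and it was at -0.13 on total counts.

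The difference with time was larger in Het than in WT for the 8 members higher in Het, as ratios of mean RQ, and the test of that difference is the one given above. The later libraries stood at 2.79 times day 8 in WT and 7.91 times in Het for Slc7a11. For Slc6a9 the factors were 2.05 and 3.71, for Slc7a5 1.58 and 2.62, and for the heavy chain Slc3a2 1.37 and 2.02. Slc7a1 and Slc1a5 stood near their day 8 level in WT (0.978 and 1.03) and above it in Het (1.44 and 1.55). Slc1a4 stood at 1.19 and 1.38, and Slc38a2 at 1.19 in WT and 1.06 in Het. Markers of cell types moved with time as well: all 6 OB markers and all 7 macrophage markers were higher at the later days and 4 of 5 chondrocyte markers lower, and their part in these values was not tested. Of the 31 other amino acid transporters tested, 18 were higher and 6 lower, and of the 16 ISR genes 14 were higher.

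Between day 14 and day 21, Slc7a1 fell by 0.30 ± 0.07 (edgeR adjusted p = 0.00623). Without replicate 4 this call was lost (adjusted p = 0.0834). It was 1 member called of 9, where 19.3% of 19839 genes were called and 5.94% lower (2646 of 3824 calls were higher on the housekeeping scale, 2259 of 4415 with TMM, 2293 of 4413 with DESeq2's size factors and 2245 of 4270 on total counts). In WT, all 4 day 21 libraries of Slc7a1 were below all 4 of day 14, as for 9.18% of all genes, 0.0793 to 0.118 against 0.124 to 0.137. The other members' log2 values lay between -0.35 (Slc7a11) and 0.11 (Slc38a2), and none passed. Slc1a5 lay just outside the threshold (-0.28 ± 0.10, adjusted p = 0.0514) and passed it with TMM (adjusted p = 0.0357), DESeq2's size factors (0.0309), total counts (0.0338) and DESeq2 (0.0261). With the replicate block Slc1a5 (adjusted p = 0.0186) and Slc7a5 (-0.27, adjusted p = 0.0102) were called lower at day 21 as well. No difference of the Het effect between these days was detectable: edgeR called 0 of 19839 genes (0%), 473 genes and no member had an unadjusted p under 0.05, and DESeq2 called 1 gene, no member.

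Other carriers of amino acids changed in both directions. Of 46 further amino acid transporters in the files, 31 passed the filter on low counts, and at days 14 and 21 there were 4 higher and 5 lower in Het (edgeR adjusted p under 0.05), with a median log2 fold change of -0.16 against -0.05 over all genes and 0.64 over the 9. The 5 with the largest called change were Slc36a2, Slc38a1, Slc6a6, Slc38a7 and Slc7a8. Slc36a2, a proton-coupled carrier of small amino acids such as glycine and proline, fell from a mean RQ of 0.112 ± 0.0226 to 0.0720 ± 0.0220 (log2 -0.64 ± 0.15, adjusted p = 0.0112). Slc6a6, the taurine carrier and the most abundant of the 5, fell from 1.65 ± 0.406 to 1.17 ± 0.324 (-0.50 ± 0.10, adjusted p = 0.00542).

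Slc38a1, a sodium-coupled carrier of the same family as Slc38a2, rose from 0.0493 ± 0.00777 to 0.0704 ± 0.0160 (0.52 ± 0.11, adjusted p = 0.00735), opposite in direction to Slc38a2. Slc38a7, a lysosomal glutamine carrier, rose from 0.0415 ± 0.00335 to 0.0562 ± 0.00620 (0.44 ± 0.06, adjusted p = 0.000265). Slc7a8, which like Slc7a5 pairs with the heavy chain Slc3a2, rose from 0.0421 ± 0.00876 to 0.0556 ± 0.0141 (0.40 ± 0.12, adjusted p = 0.0301). Without replicate 2, 3 or 4 the calls in this list fell to between 1 and 2, where 328, 258 and 139 genes were called in all. Without replicate 1 the calls in this list rose to 18, where 7582 of 19263 genes were called.

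**Figure D5:**
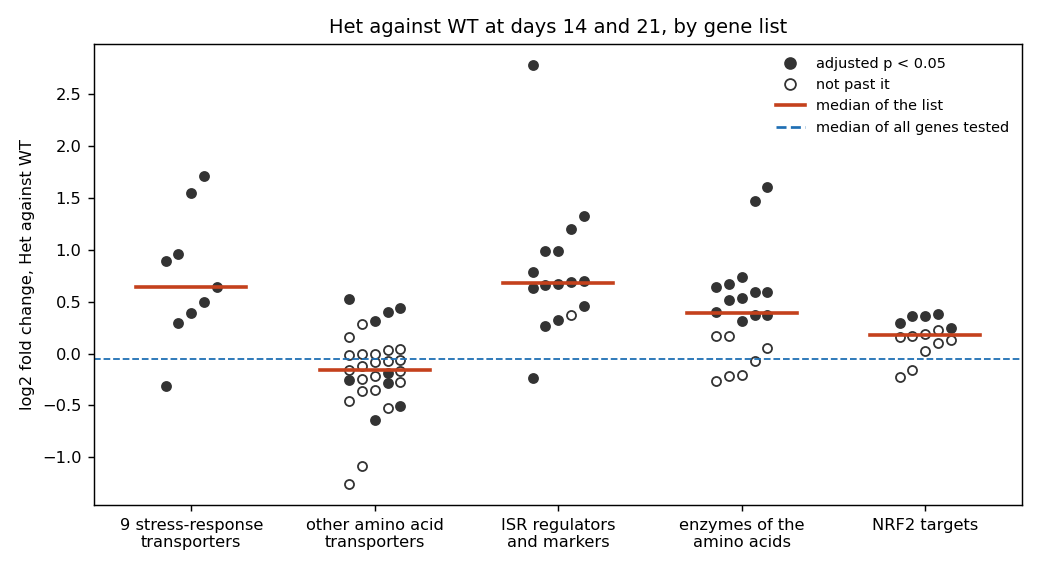
Log2 fold change of Het against WT at days 14 and 21 for each gene tested in 5 lists; filled circles have an edgeR adjusted p under 0.05, red bars are list medians and the dashed line is the median of all 19839 genes tested. The 9 transporters have a median of 0.64, and the other amino acid transporters one of -0.16.

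Genes of the same response were measured alongside. Of 16 ISR regulators and markers, 14 were higher in Het at days 14 and 21 and 1 lower, with a median log2 fold change of 0.68; the exceptions, named after their values were seen, were Ddit4 (0.37, edgeR adjusted p = 0.0655) and Vldlr (-0.23, adjusted p = 0.0417). Some of these genes, such as Atf5 and Ddit3, are among those the study followed in these cultures, so their direction is not independent evidence. Of 20 enzymes that make or break down the transported amino acids, 13 were higher and none lower, with a median of 0.39. Asns, Gpt2 and Shmt2 of this list were likewise followed by the study, so their direction is not independent evidence either. Of 14 NRF2 targets, 5 were higher and none lower, with a median of 0.18, and on the other 3 scales 10 were called. At day 8, where edgeR called no gene at all, the medians of these lists were 0.0033 for the ISR genes, -0.0053 for the enzymes and 0.013 for the NRF2 targets, and without replicate 1 there were 4, 3 and 1 calls among them. Without replicate 2, 3 or 4 the calls among the ISR genes fell to between 6 and 9, among the enzymes to between 1 and 7 and among the NRF2 targets to 0. Those settings called 328, 258 and 139 genes in all.

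With each day's mean subtracted but the genotypes left in, Pearson's r of log2 RQ over the 24 libraries was 0.49 to 0.95 (median 0.86) for the 28 pairs among the 8 members that rose, and -0.76 to -0.03 for the 8 pairs with Slc38a2. The 8 members share a higher level in Het, and the libraries share their scale and depth, so the sign of these values follows in part from the difference in genotype and they are a description. Among 14822 other genes, the one most like each member by the same measure was Bcat1 for Slc7a11 (r = 0.90), Ccdc24 for Slc7a5 (0.97), Lars for Slc3a2 (0.98), Uhrf1bp1 for Slc7a1 (0.91), Cth for Slc7a3 (0.96), Nars for Slc1a4 (0.94), Cabp1 for Slc1a5 (0.95), Pja2 for Slc38a2 (0.98) and Gm17114 for Slc6a9 (0.98). Bcat1 encodes a branched-chain amino acid transaminase, Cth the enzyme that releases cysteine from cystathionine, and Lars and Nars the cytosolic leucyl and asparaginyl tRNA synthetases. Ccdc24 and Gm17114 are the antisense neighbours that share exon bases with Slc6a9.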

How the data were processed

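The authors deposited one table per library of raw read counts per gene with the summed exon length of each gene (the length column, in bases). The submitters' processing notes name mm10, cutadapt 2.5, STAR 2.73a, Subread and featureCounts 1.6.4; strand and multimapping settings are not given in the sources used here. Totals of 17140202 to 59734231 counts set the precision, which is lowest for Slc7a11.

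Counts were tested with edgeR 4.0.16 (quasi-likelihood F test, R 4.3.3) with the geometric mean of the 4 housekeeping genes as library size, filterByExpr and Benjamini-Hochberg adjustment over all genes tested, called at an adjusted p of 0.05; days 14 and 21 were combined as in the study, with day as a covariate. The standard error is the log2 fold change over the root of F. The edgeR fits alone were tested on simulated data, with independent libraries, housekeeping counts without noise and no effect of replicate number. Ratios of mean RQ were given an exact permutation p (two-sided, unadjusted, 9 members). Alternatives were other scalings (TMM, DESeq2's size factors, total counts), no filter, DESeq2 1.42.0, a replicate block, single days, and libraries left out; those for the other gene lists were added after seeing the data. Replicates are wells or preparations that may share a pool of pups, so p-values measure the spread between libraries. Same-numbered WT and Het libraries deviated together (r = 0.25 to 0.78 in 12 pairs), so a replicate block was fitted as an alternative to the unblocked test and is given where it changes a call. Replicates 2 to 4 also deviated together across different numbers (0.10 to 0.50 in 18 pairs), and with replicate 1 left out same-numbered libraries gave -0.01 to 0.24, so the block mainly sets replicate 1 apart from the rest.

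Genes named by rule were the 9 members, the housekeeping genes and the gene most correlated with each member (mean of at least 50 counts). The rule also took the 5 other amino acid transporters with the largest called change and a mean of at least 50 counts. Cell type markers, sex-linked genes, the neighbours of Slc6a9 and single genes of the lists were named outside that rule, some after their values were seen. No per-sample column was left unused. Members and lists were chosen with earlier results of these data known. Of 55335 gene identifiers, 54587 matched GENCODE M21.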

Additional observations from a re-analysis of the deposited data

Results flagged for a closer look

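There were 2 values that stood far from the other libraries of their group of 4, judged by the gap to the nearest library as a share of the group's range. Slc1a4 in WT day 14 replicate 2 had an RQ of 0.0964, above 3 libraries that ended at 0.0901. Slc6a9 in Het day 21 replicate 1 had an RQ of 0.0772, below 3 libraries that began at 0.0886. With 54 groups examined, chance alone picks out about 5% of such groups. A difference of the genotype effect between day 8 and the later days, or between days 14 and 21, passed edgeR's adjusted threshold for no member.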

How the results depend on the processing

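With TMM, DESeq2's size factors, total counts, no filter on low counts, DESeq2 and a replicate block, between 8 and 9 members were called for Het against WT at days 14 and 21, against 0 at day 14 alone and 4 at day 21 alone, which hold fewer libraries. Leaving out replicates or libraries gave 2 to 9 calls there, 0 to 2 at day 8, 0 to 7 for the change of effect after day 8 and 0 to 3 between days 21 and 14. The change of effect after day 8 gave 2 calls with DESeq2 and 1 with the replicate block. Between days 21 and 14 there were 2 calls with TMM, 2 with DESeq2's size factors, 2 on total counts, 2 with DESeq2 and 3 with the replicate block. For days 14 and 21 against day 8 there were 5 calls on total counts, where Slc7a1 was at -0.0561 and Slc38a2 at -0.13 (log2), and Slc38a2 was at -0.0077 with TMM. With the replicate block Slc7a11 turned to -0.0566 at day 8, and the day 21 minus day 14 difference of the Het effect turned to 0.0571 for Slc7a11 and 0.0566 for Slc7a3. The block also called Slc38a2 with time (0.17), Slc7a3 for the change of effect (1.44) and Slc7a5 and Slc1a5 between days 21 and 14, and it changed no other call of a member. Uncalled values at day 8 changed sign with libraries left out, over -0.42 to 0.30 for Slc7a11, -0.19 to 0.38 for Slc6a9, -0.0633 to 0.28 for Slc1a4 and -0.0261 to 0.24 for Slc3a2. So did the day 21 minus day 14 difference, over -0.30 to 0.20 for Slc7a11, -0.17 to 0.11 for Slc3a2, -0.00017 to 0.22 for Slc7a1, -0.24 to 0.29 for Slc7a3 and -0.13 to 0.23 for Slc1a5. Over all genes, calls for Het against WT at days 14 and 21 went from 3202 to between 139 and 7582 with a replicate left out, 34 at day 14 alone and 368 at day 21 alone. At day 8 they went from 0 to 431 with DESeq2, 285 with the block and 3432 without replicate 1. For the change of effect they went from 35 to 92 with DESeq2, 67 with the block and between 0 and 928 with a replicate left out. Between days 21 and 14 they went from 3824 to between 1697 and 5573 with a replicate left out. By the ratio of mean RQ 7 to 9 members passed the 20% bar. The cause of these shifts was not tested. Depth limits Slc7a11 most, with as few as 14 counts in a library.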
